A study of Homo sapiens with 8 samples.

Results

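The transcripts of 10 mesendoderm markers were examined in 4 long-term cultures of H9 human embryonic stem cells (hESCs). The genes are TBXT, MIXL1, EOMES, GSC, SOX17, FOXA2, GATA4, GATA6, CER1 and HAND1. The list was set by gene name, with earlier results of these data known, and its genes are 10 of the 60675 gene rows measured in each sample. A filter on low counts kept 19499 genes, among them 8 of the 10 markers. GSC and SOX17 had too few reads to pass, so they are described by their levels.

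Mesendoderm is the progenitor state of the primitive streak, from which mesoderm and definitive endoderm arise at gastrulation. hESCs enter it when NODAL or ACTIVIN signals, acting through SMAD2, SMAD3 and FOXH1, combine with WNT and BMP signals. TBXT, MIXL1, EOMES and GSC are among the first transcription factors of the streak. SOX17, FOXA2, GATA4 and GATA6 follow in endoderm, CER1 is a secreted inhibitor made by anterior endoderm, and HAND1 marks lateral mesoderm and extraembryonic cells. In undifferentiated hESC cultures these genes are usually low, and their transcripts can come from a few spontaneously differentiating cells.

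All groups derive from H9 (WA09), an established hESC line, kept without feeder cells in mTeSR1 medium on Matrigel and passaged with dispase. The study's own list of cell culture reagents names iPSC-brew and not mTeSR1. P1 cells are labelled passage 40s, P2 cells passage 100s, P3 cells passage 200s and P4 cells passage 300s, with 2 samples per line and no treatment. The study describes P3 and P4 as culture-adapted variants with a gain on the long arm of chromosome 20, so passage, genotype and culture history cannot be told apart here. Nothing in the labels says that the duplicates come from separate cultures, and the p-values then measure a spread between samples that may be technical.

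Total expected counts were between 26874899 and 38095600 per sample, and mitochondrial genes took between 5.89% and 18.5% of them. POU5F1, the central pluripotency factor, lay between 1095 and 2421 TPM (a level scaled to transcript length and library size). None of the 10 pluripotency genes listed was called in the 7 comparisons by edgeR. There, 16 of 70 tests had an unadjusted p under 0.05 (22.9%, beside 21.5% of the tests of all genes), while limma made 1 call. DESeq2 made 5, all of UTF1 or ZFP42, in comparisons where it called 600 to 1293 of all 19499 genes. UTF1 was at 2.02 and 0.84 TPM in P1, 1.3 and 3.54 TPM in P2, 0.59 and 0.19 TPM in P3, and 7.44 and 5.77 TPM in P4. ZFP42 had line means of 45.4 TPM in P1, 104 TPM in P2, 48.6 TPM in P3 and 99.8 TPM in P4.

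The markers were expressed at a low level in every sample, and no sample exceeded 4.41 TPM for any of them. At a minimum of 1 TPM for the mean of a line, 1 of 10 markers was detected in P1 hESCs (CER1), 4 in P2 hESCs (MIXL1, EOMES, CER1 and HAND1), 2 in P3 hESCs (FOXA2 and CER1) and 1 in P4 hESCs (CER1). The sum over the 10 markers was 3.55 and 2.93 TPM in the P1 samples, 7.75 and 7.84 TPM in the P2 samples, 7.96 and 5.79 TPM in the P3 samples, and 5.50 and 5.03 TPM in the P4 samples. CER1 was among the largest parts of both the P2 and the P3 sums, beside HAND1, MIXL1 and EOMES in P2 and FOXA2 in P3. In bulk RNA, fewer cells of a type and less RNA per cell cannot be told apart.

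**Figure D1:**
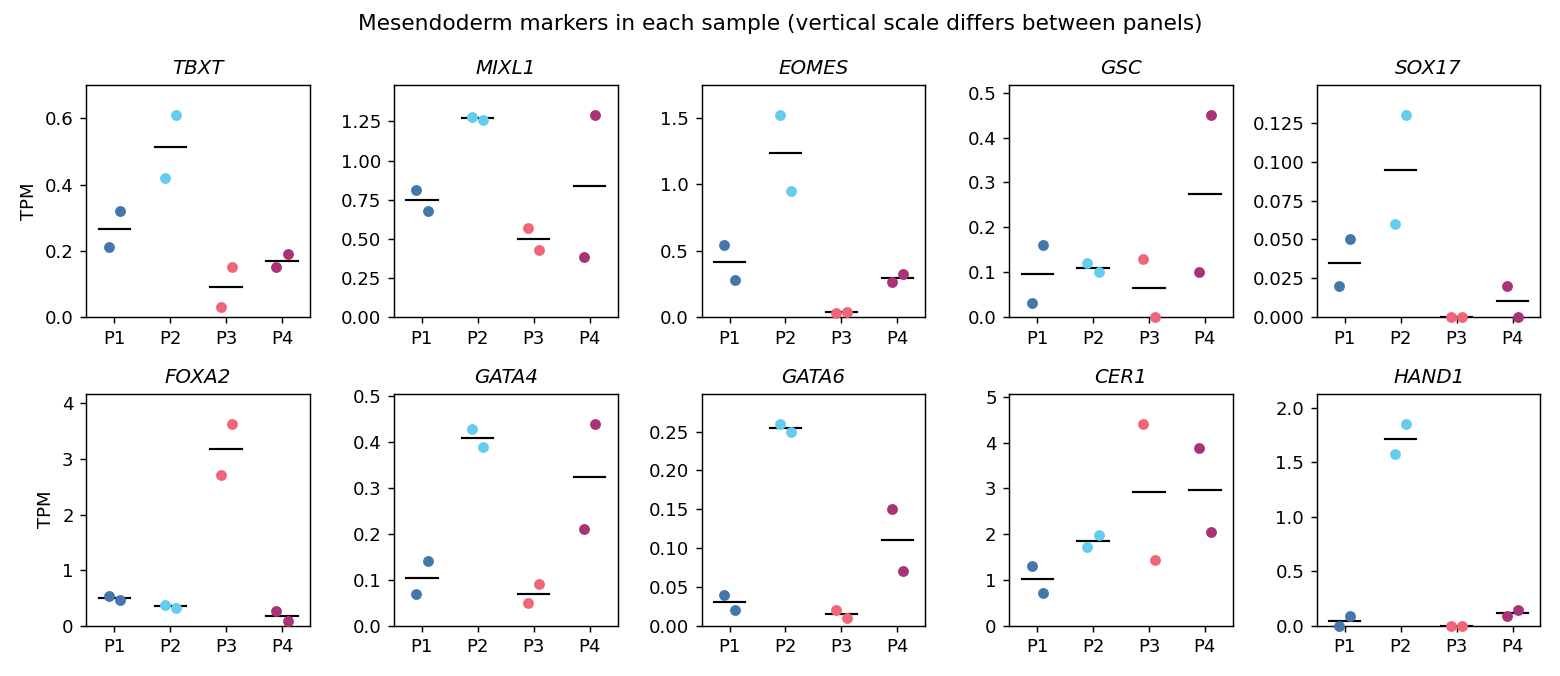
Level of each mesendoderm marker in TPM (vertical axis, own scale per panel) in P1, P2, P3 and P4 hESCs (horizontal axis). Points are the 2 samples of a line and bars their mean. HAND1 and EOMES stand highest in P2 and FOXA2 in P3, where its samples reach 2.72 and 3.63 TPM.

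In the plot of levels by sample, 7 of the 10 markers had their highest line mean in P2 and their lowest in P3. These were TBXT, MIXL1, EOMES, SOX17, GATA4, GATA6 and HAND1. The order was the same in TPM and in CPM (counts scaled to library size by TMM). Of the 8 tested markers, 6 had this order, and of all 19499 genes tested 10.8% had it. GATA4, GATA6 and HAND1 passed the filter on low counts only through their P2 samples. Their place among the 6 was thus partly fixed by the filter, and no conclusion is drawn from the 2 shares. The order is a description of line means and carries no test.

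Upstream sequences are shown for 3 markers. CER1 and MIXL1 are the markers with a FOXH1-type match, shown because the NODAL gene itself differed between the lines. HAND1 is shown for its high level in P2, and it holds a TCF/LEF match, as TBXT does. The sequences are from RefSeq on GRCh38.p14, whose table held 7 of the 10 markers. Each run begins 250 bases before the RefSeq start and stops before the first base that either RefSeq or GENCODE places in the gene. They are written 5′ to 3′ on the strand of the gene. Capitals mark AATCCACA or AATACACA (letters bound by FOXH1, the SMAD partner) and CTTTGA (letters bound by TCF/LEF factors of WNT signalling), on either strand.
CER1, minus strand, chr9:14722734-14722983: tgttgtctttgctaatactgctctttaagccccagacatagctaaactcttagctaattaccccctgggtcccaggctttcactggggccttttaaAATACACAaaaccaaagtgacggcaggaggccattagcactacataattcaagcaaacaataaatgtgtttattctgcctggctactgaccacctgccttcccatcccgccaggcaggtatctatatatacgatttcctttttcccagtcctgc
MIXL1, plus strand, chr1:226223414-226223617: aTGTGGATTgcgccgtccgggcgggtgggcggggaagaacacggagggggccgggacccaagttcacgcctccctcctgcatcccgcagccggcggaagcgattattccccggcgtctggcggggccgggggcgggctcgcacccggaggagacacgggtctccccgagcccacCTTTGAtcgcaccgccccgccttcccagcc
HAND1, minus strand, chr5:154478265-154478477: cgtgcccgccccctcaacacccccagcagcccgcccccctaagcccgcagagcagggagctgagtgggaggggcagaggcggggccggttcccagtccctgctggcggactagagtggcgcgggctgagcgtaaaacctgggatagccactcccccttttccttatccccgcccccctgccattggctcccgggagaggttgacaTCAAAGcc

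Both FOXH1-type forms were searched in the 250 bases before each RefSeq start. CER1 held AATACACA from 154 to 147 bases before its start, and MIXL1 held AATCCACA on the opposite strand from 249 to 242 bases before its start. Either form was present in 1.37% of the 35116 promoters. CTTTGA was present in MIXL1 from 76 to 71 bases, in HAND1 from 45 to 40 bases and in TBXT from 87 to 82 bases before the start, against 11.2% of all promoters. The T-box letters GGTGTGA (2.76% of promoters) and the forkhead letters TGTTTAC (2.98%) were in none of the 7 markers. The homeobox letters TAATTA were in CER1 (4.35% of promoters), the letters GATAA were in HAND1 (20.4%), and TATAAA was in EOMES, TBXT and GSC (10.7%). The motifs searched do not overlap one another in these windows. A match describes letters and is not a binding site.

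Whether late culture changed the markers was asked by comparing P3 and P4 hESCs with P1 and P2 hESCs, 4 samples against 4. A gene was called when its absolute log2 fold change was above 1 and its Benjamini-Hochberg adjusted p (FDR) in edgeR's quasi-likelihood test over all 19499 genes was under 0.01. None of the 8 tested markers was called, where 2.2% of all genes tested were (207 higher and 222 lower). At an unadjusted p under 0.05 there were 5 of 8 markers (TBXT, EOMES, FOXA2, CER1 and HAND1) and 25.5% of all genes, and DESeq2, which the study names, called 1 (EOMES). DESeq2 called 4.65% of all genes in this comparison. The median log2 fold change of the 8 markers was -1.08, with 2 above 0 and 6 below, beside a median of 0.01 over all genes.

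EOMES, a T-box factor needed for definitive endoderm, had the lowest edgeR FDR of the tested markers in P3 and P4 over P1 and P2. EOMES was at 0.54 and 0.28 TPM in P1, 1.52 and 0.95 TPM in P2, 0.03 and 0.04 TPM in P3, and 0.26 and 0.32 TPM in P4. The late and early samples did not overlap in CPM but did overlap in TPM. The log2 fold change of P3 and P4 over P1 and P2 was -2.31 (SE 0.65, edgeR FDR 0.0544). DESeq2 gave -2.30 with an FDR of 0.00679, and the edgeR model with 4 lines gave -2.65 with an FDR of 0.000337.

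Between single lines, EOMES was lower in P3 than in P1, with a log2 fold change of -3.25 (SE 0.55, edgeR FDR 0.00313). It was also lower in P3 than in P2, at -4.73 (SE 0.53, edgeR FDR 0.000215). P3 held 3 counts of EOMES in each sample, against 118 and 73 in P2. The pooled ratio of P2 over P3 was 28, with a 95% exact interval of 12.6 to 77.2 that covers counting error only. P4 stood between them, at -2.04 relative to P2 (SE 0.42, edgeR FDR 0.016) and 2.69 relative to P3 (SE 0.57, edgeR FDR 0.0247), neither called. Relative to P1, P4 was at -0.56 (SE 0.43, edgeR FDR 0.489), not called, so the late over early value does not describe P4 alone. The difference of P3 from P1 lost its call without either P1 sample or either P3 sample. Its log2 fold change stayed between -3.44 and -3.01.

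TBXT (Brachyury), the T-box factor of the streak, had its lowest mean in P3, as EOMES did. TBXT was at 0.21 and 0.32 TPM in P1, 0.42 and 0.61 TPM in P2, 0.03 and 0.15 TPM in P3, and 0.15 and 0.19 TPM in P4. The late samples lay below all early samples in TPM and in CPM. The log2 fold change of late over early was -1.69 (SE 0.50, edgeR FDR 0.0628), so the difference was not called. The gene rested on 2 to 28 counts per sample. P3 relative to P2 gave the largest value, -2.58 (SE 0.68, edgeR FDR 0.0309), and P2 relative to P1 gave 0.63 (SE 0.58, edgeR FDR 0.775).

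MIXL1, a homeobox factor of the streak, showed no called difference. MIXL1 was at 0.81 and 0.68 TPM in P1, 1.28 and 1.26 TPM in P2, 0.57 and 0.43 TPM in P3, and 0.38 and 1.29 TPM in P4. The P2 samples agree closely, while the 2 P4 samples span the range of all other lines. Late over early gave a log2 fold change of -0.35 (SE 0.39, edgeR FDR 0.616). The nearest gene above 1 TPM within 10 kb, LIN9 on the opposite strand, lies 4095 bases away and was at 5.74 to 7.23 TPM by line.

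GSC, a homeobox factor of the organizer, was near the limit of detection. GSC was at 0.03 and 0.16 TPM in P1, 0.12 and 0.10 TPM in P2, 0.13 and 0.00 TPM in P3, and 0.10 and 0.45 TPM in P4. The highest sample held 11 counts and the lowest 0, which allows up to 3 counts or 0.0837 CPM in that library. The lines overlapped in this gene.

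FOXA2, a forkhead factor of definitive endoderm, floor plate and later gut, was higher in P3 than in each other line. FOXA2 was at 0.53 and 0.47 TPM in P1, 0.37 and 0.32 TPM in P2, 2.72 and 3.63 TPM in P3, and 0.26 and 0.08 TPM in P4. The P3 samples held 214 and 227 counts and every other sample at most 33. The log2 fold change of P3 was 2.76 over P1 (SE 0.44, edgeR FDR 0.00244) and 3.45 over P2 (SE 0.46, edgeR FDR 0.000773). P4 over P3 was -4.25 (SE 0.50, edgeR FDR 0.000782), and this call was kept in all 8 fits without 1 sample. The order of the lines was P3, P1, P2 and P4, and the neighbours below P3 did not differ by a call (P2 over P1 -0.68, SE 0.47, edgeR FDR 0.681, and P4 over P2 -0.80, SE 0.53, edgeR FDR 0.503).

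Because the late group joins P3 with P4, the late over early value of FOXA2 was 2.15 with an SE of 0.87 (edgeR FDR 0.153) and was not called. The call over P1 was lost without either P1 sample or the first P3 sample, at an FDR of up to 0.041, and the call over P2 without either P2 sample, at an FDR of up to 0.0174. FOXA2 lies on the short arm of chromosome 20, at chr20:22581005-22585455 on GRCh38 (minus strand, protein coding, GENCODE release 29). Its exons overlap those of AL121722.1 on the same strand, a gene not analysed here. LINC00261, a long noncoding RNA that lies 2363 bases away on the same strand, was chosen after its values were seen. It held 17 and 45 counts in the P3 samples and 0 to 2 in every other sample.

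SOX17, an HMG-box factor that defines definitive endoderm, was at 0.02 and 0.05 TPM in P1, 0.06 and 0.13 TPM in P2, 0.00 and 0.00 TPM in P3, and 0.02 and 0.00 TPM in P4. It held 0 counts in both P3 samples, which allows up to 0.0948 and 0.0837 CPM. The highest value was 8 counts in a P2 sample. The P3 samples thus had the most FOXA2 and no counted SOX17 read.

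GATA4 and GATA6 are zinc finger factors of endoderm and heart mesoderm, and both had their highest mean in P2. GATA4 was at 0.07 and 0.14 TPM in P1, 0.43 and 0.39 TPM in P2, 0.05 and 0.09 TPM in P3, and 0.21 and 0.44 TPM in P4. GATA6 was at 0.04 and 0.02 TPM in P1, 0.26 and 0.25 TPM in P2, 0.02 and 0.01 TPM in P3, and 0.15 and 0.07 TPM in P4. For both genes the P2 samples lay above the P1 and P3 samples, and for GATA6 also above both P4 samples, while GATA4 overlapped P4 in TPM but not in CPM (32 and 27 counts in P2 against 6 and 12 in P4). The neighbour of GATA4 above 1 TPM within 10 kb, NEIL2, lies 9637 bases away on the same strand and was at 7.44 to 11 TPM by line.

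P3 over P2 gave a log2 fold change of -2.50 for GATA4 (SE 0.72, edgeR FDR 0.0429) and -3.72 for GATA6 (SE 0.78, edgeR FDR 0.011), neither called. GATA6 rested on 3 counts in P3 and 49 in P2, a pooled ratio of 14.4 with a 95% exact interval of 4.63 to 72.0 for counting error. P2 over P1 gave 2.17 for GATA4 (SE 0.70, edgeR FDR 0.466) and 3.02 for GATA6 (SE 0.72, edgeR FDR 0.299). Both genes passed the filter on low counts only through their P2 samples. The exons of GATA6 overlap GATA6-AS1 on the opposite strand, which held 0 to 3 counts per sample. The libraries were strand-specific, but the strand setting of the counting is not given in the sources used here, so reads of the overlapping pair may not be separated.

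HAND1, a bHLH factor of lateral mesoderm, amnion and trophoblast, was almost confined to P2 among these 8 libraries. HAND1 was at 0.00 and 0.09 TPM in P1, 1.57 and 1.85 TPM in P2, 0.00 and 0.00 TPM in P3, and 0.09 and 0.14 TPM in P4. The P2 samples held 76 and 81 counts, the P1 samples 0 and 4, the P4 samples 4 and 5, and the P3 samples 0. P2 was at least 21.7-fold higher than P3, taking a floor of 3 counts per P3 library, and this difference was called (edgeR FDR 0.00105). HAND1 passed the filter on low counts only through its P2 samples.

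HAND1 had a log2 fold change of 5.0 for P2 over P1 (SE 0.80, edgeR FDR 0.0847) and -3.72 for P4 over P2 (SE 0.72, edgeR FDR 0.0131), neither called by edgeR. DESeq2 called both, with FDRs of 0.00132 and 0.00152. Late over early gave -3.81 (SE 1.31, edgeR FDR 0.0991). P1, P3 and P4 all lay at or near the limit of detection.

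CER1, which binds and blocks NODAL, BMP and WNT ligands, had the highest mean TPM of the 10 markers in P1, P2 and P4. CER1 was at 1.3 and 0.72 TPM in P1, 1.72 and 1.98 TPM in P2, 4.41 and 1.44 TPM in P3, and 3.88 and 2.05 TPM in P4. The higher sample of P3 and of P4 lay above all others, while the lower P3 sample fell within the range of P1 and P2. The log2 fold change was 1.29 for late over early (SE 0.46, edgeR FDR 0.11), 1.79 for P3 over P1 (SE 0.62, edgeR FDR 0.0777) and 1.61 for P4 over P1 (SE 0.62, edgeR FDR 0.158), none called. The samples of P3 and P4 with more CER1 had mitochondrial shares of 18.4% and 17.2%, against 7.53% and 5.89% in their partners. In P1 the sample with more CER1 had the smaller share, 9.84% against 18.5%. The part of this difference in the CER1 values was not tested.

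**Figure D2:**
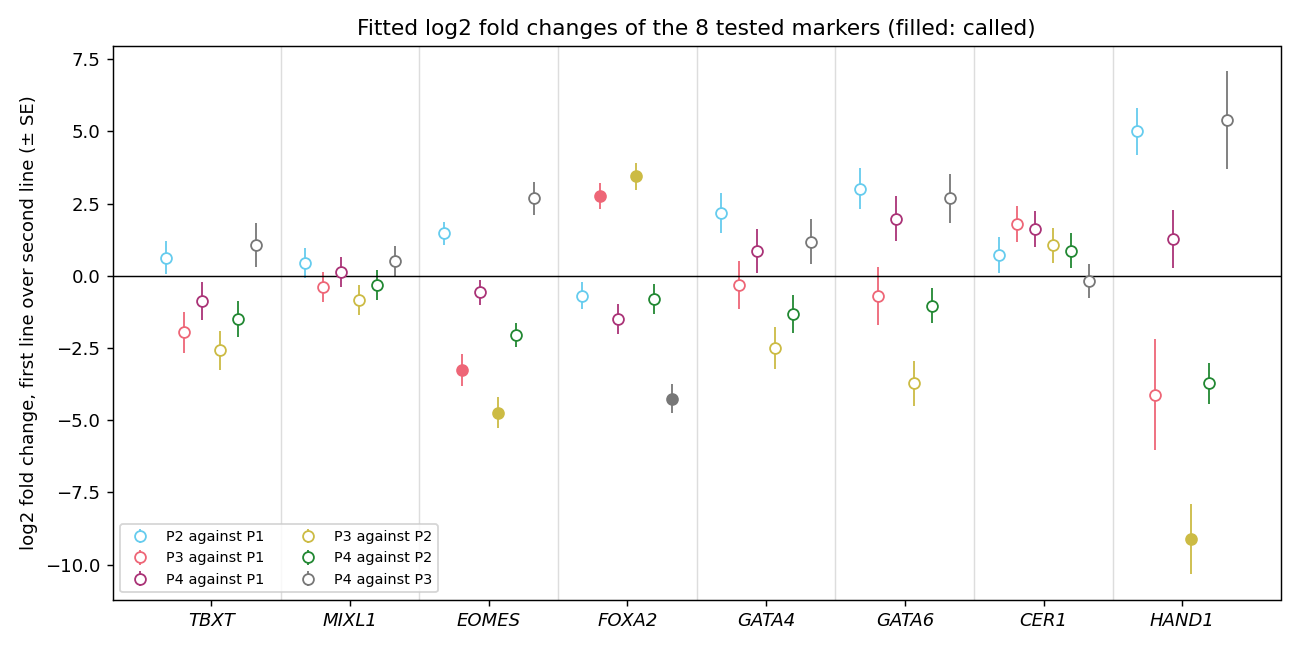
Log2 fold changes (vertical axis) of the 8 tested markers (horizontal axis) in the 6 comparisons of single lines, from edgeR's 4-line model, with standard errors as bars. Filled points are called. They are EOMES and FOXA2 in P3 against P1, EOMES, FOXA2 and HAND1 in P3 against P2, and FOXA2 in P4 against P3. Values of HAND1 against P3, which had 0 counts, depend on the prior count of the model.

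Counted by comparison, the calls fell on P3. P2 against P1 called 0 of the 8 tested markers and 0.0% of all genes by edgeR, with 4 of 8 markers and 9.14% of all genes (1782) at an unadjusted p under 0.05. These 4 were EOMES, GATA4, GATA6 and HAND1, and all but EOMES passed the filter only through their P2 samples. In that comparison DESeq2 called 1 marker (HAND1) and 0.205% of all genes (40), and limma called HAND1 alone on log2(TPM + 1) and 0 on log2(TPM + 0.1). P3 against P1 called 2 markers (FOXA2 higher, EOMES lower) and 3.93% of all genes. P3 against P2 called 3 markers (FOXA2 higher, EOMES and HAND1 lower) and 3.42% of all genes. P4 against P3 called 1 marker (FOXA2 lower) and 0.815% of all genes.

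Neither P4 comparison with an early line called a marker. P4 against P1 called 0 of 8 markers by edgeR and by DESeq2, beside 2.11% and 4.49% of all genes, with 3 of 8 markers and 21.5% of all genes at an unadjusted p under 0.05 in edgeR. P4 against P2 called 0 of 8 by edgeR and 1 by DESeq2 (HAND1), beside 1.75% and 3.57% of all genes, with 3 of 8 markers and 16.7% of all genes at an unadjusted p under 0.05 in edgeR. These comparisons share the samples of their lines, so their counts are not independent of one another.

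The median log2 fold change of the markers was 1.11 for P2 over P1, with 7 of 8 above 0, and -2.54 for P3 over P2, with 6 of 8 below 0. It was -1.18 for P4 over P2, with 7 of 8 below 0. GATA4, GATA6 and HAND1 passed the filter only through their P2 samples. The medians and counts that involve P2 were thus partly set by the filter. P4 over P1 gave 0.49, with 5 of 8 above 0, unlike the late over early median. P4 over P3 gave 1.13, or 0.88 with HAND1 at its bound. P3 over P1 gave -0.54, or -0.38 without HAND1, which was near the floor in both lines. The median of all genes tested was between -0.02 and 0.03 in these comparisons.

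Other genes of the same stages were taken from lists. Of 11 further primitive streak and early mesoderm genes 8 were tested, and none was called by edgeR in the 7 comparisons. There, 16 of 56 tests (28.6%) had an unadjusted p under 0.05, beside 21.5% of the tests of all genes, DESeq2 called 1 (FGF17, lower in P3 than in P1) and limma 0. Their median log2 fold change was 0.80 for P2 over P1 and -1.79 for P3 over P2. Their summed level was 7.11 and 8.36 TPM in P2 and 3.81 and 1.75 TPM in P3, with P1 and P4 between 4.30 and 7.30 TPM.

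Of 11 further endoderm genes 8 were tested, and none was called by edgeR, with 13 of 56 tests (23.2%) at an unadjusted p under 0.05, 1 call by DESeq2 (AFP, lower in P4 than in P3) and 0 by limma. Their median was -0.14 for P2 over P1 and -0.38 for P3 over P2, and their summed level was 22.9 to 27.7 TPM over the 8 samples. FOXA3 alone was at 13.1 to 18.1 TPM, so this sum says little about the lower genes. Of 10 lateral and cardiac mesoderm genes 7 were tested and none was called by edgeR, DESeq2 or limma, with 13 of 49 tests (26.5%) at an unadjusted p under 0.05. Of 11 neuroectoderm genes 7 were tested and none was called by these 3 tools, with 8 of 49 tests (16.3%) at an unadjusted p under 0.05.

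**Figure D3:**
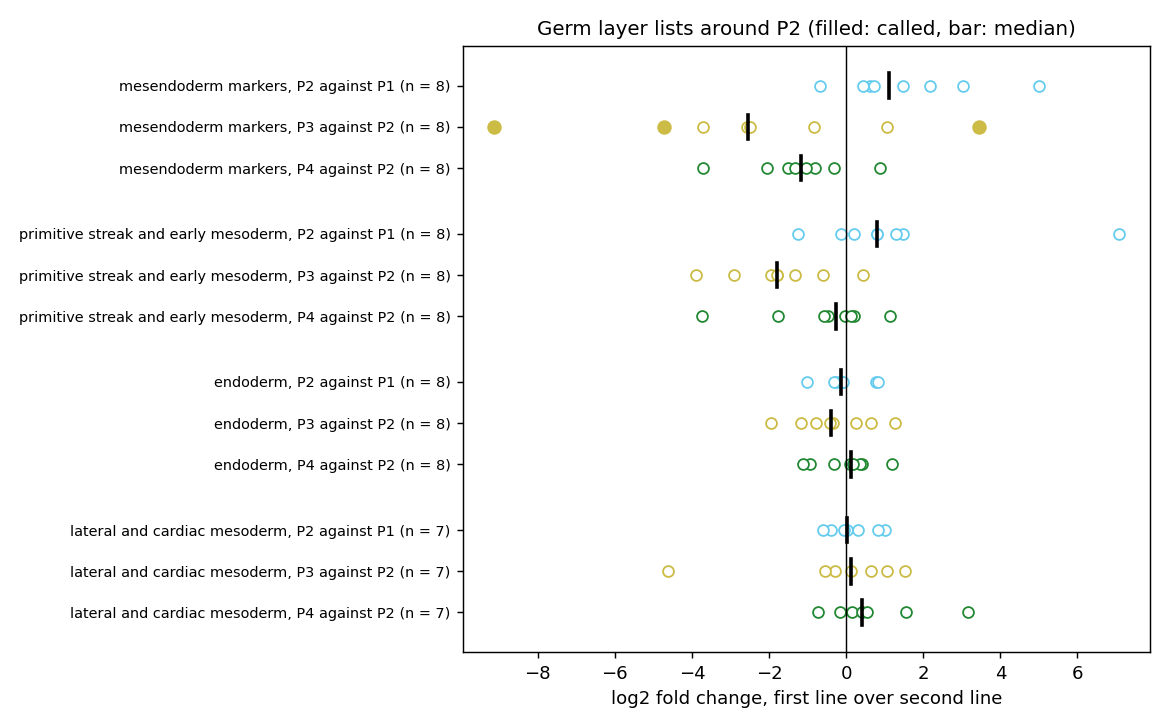
Log2 fold changes (horizontal axis) of each tested gene in 4 lists (rows), for P2 against P1, P3 against P2 and P4 against P2, from edgeR's 4-line model. Filled points are called, and black bars are medians. GATA4, GATA6 and HAND1 passed the filter on low counts only through P2. The medians of the mesendoderm markers are 1.11, -2.54 and -1.18, and those of the endoderm list are -0.14, -0.38 and 0.13.

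Trophoblast and amnion genes were listed as markers of other cells that can express HAND1. Their summed level was 31.5 and 46.1 TPM in P1, 43.5 and 42.1 TPM in P2, 14.6 and 19.0 TPM in P3, and 17.4 and 24.6 TPM in P4. P1 and P2 overlapped in this sum, while HAND1 did not. IGFBP3 and KRT7 were the largest parts of the sum in P1 and P2, so it says little about the other genes. CDX2, chosen after its values were seen, was at 0.64 and 0.73 TPM in P2 and 0.02 to 0.24 TPM in the other samples. Its log2 fold change for P2 over P1 was 2.82 (SE 0.80, edgeR FDR 0.389), not called. CGA, another gene of the list and also chosen after its values were seen, was at 0.00 TPM in 7 samples and 0.04 TPM in 1. By line mean in CPM, 4 of the 9 genes were highest in P1, 4 in P2, 0 in P3 and 1 in P4.

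Of the 9 trophoblast and amnion genes 7 were tested. Over the 7 comparisons edgeR made 3 calls, all lower, of IGFBP3 in P3 against P1 and P2 and of KRT7 in P4 against P2. In these 3 comparisons it called 3.93%, 3.42% and 1.75% of all genes. At an unadjusted p under 0.05 there were 19 of 49 tests (38.8%), beside 21.5% of the tests of all genes. DESeq2 made 8 calls, of IGFBP3, KRT7 and TFAP2A, in comparisons where it called 696 to 1401 of all 19499 genes. IGFBP3, an insulin-like growth factor binding protein, was at 13.4 and 24.5 TPM in P1, 15.8 and 13.3 TPM in P2, 3.15 and 2.38 TPM in P3, and 6.38 and 7.06 TPM in P4. Its log2 fold change for P3 over P1 was -2.46 (SE 0.39, edgeR FDR 0.00231). The part of such cells in the marker levels was not tested.

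Genes of the signals that induce mesendoderm were listed as well. The list holds 20 genes, which are ligands, receptors and effectors of NODAL, WNT and BMP signalling together with the NODAL inhibitors LEFTY1 and LEFTY2, and 19 of them were tested. In late over early, edgeR called 3 higher (NODAL and both inhibitors) and 0 lower, beside 2.2% of all genes. The other 16 were not called in this comparison, and the median of the 19 was -0.03. Over the 7 comparisons edgeR made 13 calls, of NODAL, LEFTY1, LEFTY2 and GDF3, in comparisons where it called 342 to 767 of all 19499 genes. At an unadjusted p under 0.05 there were 44 of 133 tests (33.1%), beside 21.5% of the tests of all genes. DESeq2 made 19 calls, also of BMP4 and LEF1, where it called 696 to 1401 of all genes, and limma made 13.

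NODAL, the TGF-beta ligand that maintains pluripotency and starts the streak, was at 2.62 and 2.31 TPM in P1, 2.50 and 2.35 TPM in P2, 22.3 and 8.01 TPM in P3, and 28.9 and 15.3 TPM in P4. Every late sample lay above every early sample, and the log2 fold change was 3.15 (SE 0.43, edgeR FDR 0.00154). LEFTY1, a secreted NODAL inhibitor and NODAL target, rose with it, from 8.78 and 12.7 TPM in P1 and 5.01 and 6.25 TPM in P2 to 101.9 and 32.6 TPM in P3 and 66.2 and 59.1 TPM in P4. Its log2 fold change was 3.17 (SE 0.47, edgeR FDR 0.00246). LEFTY2, its paralog, was the third called gene and is named after its values were seen. Its log2 fold change was 2.49 (SE 0.37, edgeR FDR 0.00246).

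**Figure D4:**
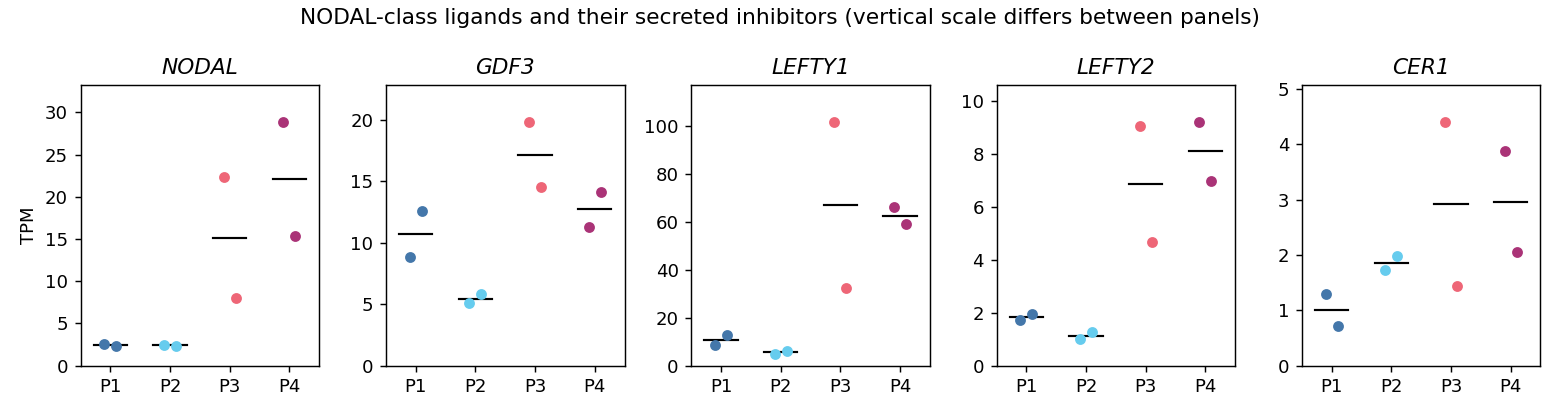
Level in TPM (vertical axis, own scale per panel) of the ligands NODAL and GDF3 and the secreted inhibitors LEFTY1, LEFTY2 and CER1 in P1, P2, P3 and P4 hESCs (horizontal axis). Points are the 2 samples of a line and bars their mean. NODAL, LEFTY1 and LEFTY2 separate late from early samples, while CER1 and GDF3 overlap.

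CER1 was the marker with a FOXH1-type match at its upstream sequence and a mean above P1 in both late lines. edgeR did not call it in any of the 7 comparisons. Without the filter on low counts, which CER1 had passed, it was called in P3 over P1 (log2 fold change 1.82, edgeR FDR 0.000441) and in P4 over P1 (1.65, edgeR FDR 0.00299). There the calls over all genes went from 767 to 1779 and from 412 to 1191. DESeq2 and limma called neither value of CER1. In the fits without 1 sample, its log2 fold change ranged from 0.38 to 2.51 for P3 over P1 and from 0.87 to 2.10 for P4 over P1. MIXL1, with the same kind of match, had a late over early log2 fold change of -0.35. The search found no FOXH1-type match for NODAL, GDF3, LEFTY1 or LEFTY2. Of these, GDF3 was among the promoters searched, and a gene missing from them would also show none. NODAL, LEFTY1 and LEFTY2 were higher in the P3 sample with 18.4% mitochondrial counts than in the one with 7.53%, as CER1 was, and all 3 genes were also higher in the P4 sample with the larger share. The part of this share in their levels was not tested. The late over early calls of NODAL were kept in all 8 fits without 1 sample, while those of LEFTY1 and LEFTY2 were lost without the second P2 sample (FDR 0.0107 and 0.011).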

How the data were processed

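Bulk RNA of the 4 hESC lines was sequenced in duplicate. Per the labels, poly(A) libraries were strand-specific, and the submitters' processing notes name FastQC, Trim Galore, STAR 2.7.3a, RSEM 1.3.3 and GRCh38. The annotation release and strand setting are not given in the sources used here. For each gene and sample the authors deposited an expected count (estimated count) made by RSEM, not normalized. The authors also deposited a TPM value, which is scaled by effective length.

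Expected counts were rounded and analysed with edgeR 4.0.16 in R 4.3.3 (TMM factors, filterByExpr by line, quasi-likelihood test). Late lines were compared with early lines in a 2-group model and single lines in a 4-group model. A call needed a log2 fold change beyond 1 in size and an FDR under 0.01, as in the study, whose tool DESeq2 (1.42.0) was an alternative. Others were DESeq2 size factors, no filter, a replicate block, the 4-group model, limma 3.58.1 on log2(TPM + 1) or log2(TPM + 0.1), an FDR under 0.05 without a fold minimum, no mitochondrial genes, leaving out each sample, and TPM minimums of 0.1 or 5. The standard error was the fold change divided by the square root of F. The code was tested on simulated data.

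Members and gene lists were chosen with earlier results of these data known. Every member is named. Of each list, at most 2 genes called higher and 2 called lower in late against early, or else in P3 or P4 against P1, are named, and neighbours within 10 kb at 1 TPM or more. FGF17, AFP, FOXA3, CGA, CDX2, KRT7, TFAP2A, UTF1, ZFP42, GDF3, BMP4, LEF1, LEFTY2 and LINC00261 fall outside this rule and were chosen after their values were seen. Samples of a line differed beyond counting noise. Depth was 26874899 to 38095600 counts, and a count of 0 allows 3 counts. Intervals and floors cover counting error only. Symbols matched 56558 of 60675 rows, and positions came from GENCODE release 29 on GRCh38.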

Additional observations from a re-analysis of the deposited data

Results flagged for a closer look

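FOXA2 differed between the 2 late lines. Its log2 fold change for P4 against P3 was -4.25 (edgeR FDR 0.000782, 16 and 4 counts in P4 against 214 and 227 in P3), a direct test of the difference between their changes from P1.

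The early and the late samples of 15 genes were searched for a single distant sample, which 2 of these 30 sets of 4 held. By chance about 1 in 20 would. The first P4 sample stood apart from the other late samples in SOX17, with a gap of 1 of the group's range on log2(CPM + 0.1). It held 1 count and the others 0. The first P3 sample stood apart in GDF3, a ligand of the NODAL class, with a gap of 0.942 of the range, at 19.8 TPM beside 14.5, 11.3 and 14.1 TPM in the other late samples. edgeR called GDF3 higher in P3 than in P2 (log2 fold change 1.97, FDR 0.00445), and the call was lost without that sample, without either P2 sample and in both limma settings. Its size without 1 sample stayed between 1.42 and 2.39.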

How the results depend on the processing

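All 6 calls of single markers by edgeR were kept with DESeq2, DESeq2 size factors, no filter, the replicate block, an FDR under 0.05 and no mitochondrial genes. Of these 6 calls, 5 were kept on log2(TPM + 1) and 4 on log2(TPM + 0.1). Late against early called 1 marker (0 in the edgeR test) with DESeq2, without a filter and in the 4-group model, where 907, 738 and 919 genes were called, against 429. P2 against P1 called 1 (against 0) with DESeq2, without a filter and on log2(TPM + 1). P3 against P1 called 3 without a filter, 1 on log2(TPM + 1) and 0 on log2(TPM + 0.1), against 2. Over all genes it called 1779 without a filter, against 767. P4 against P1 called 1 without a filter, against 0, and over all genes 1191, against 412. P3 against P2 called 6 without a filter or at an FDR under 0.05, against 3, as the calls over all genes went from 667 to 1793 and 2291. P4 against P2 called 1 with DESeq2, log2(TPM + 1) or log2(TPM + 0.1), and 2 without a filter or at an FDR under 0.05, against 0, as the calls over all genes went from 342 to 924 and 865. P4 against P3 called 3 without a filter and 2 at an FDR under 0.05, against 1, and over all genes 900 and 646, against 159. Leaving out each sample gave 0 to 2 calls for P3 against P1, 2 to 3 for P3 against P2 and 0 to 1 for P4 against P2, with no other count changed. At a minimum of 0.1 TPM, 6, 9, 3 and 9 markers were detected in P1, P2, P3 and P4, and at 5 TPM 0 in each line. The cause of these shifts was not tested, beyond the settings' own thresholds.

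Of 986 single-gene values under an alternative, 924 kept their direction and side of the threshold, 28 became called, 21 lost a call and 13 changed sign. No value that changed sign was called by edgeR. On log2(TPM + 0.1), MIXL1 in P4 against P1 gave -0.045, and CER1 in P4 against P3 gave 0.15, or 0.087 on log2(TPM + 1). Without 1 sample, MIXL1 ranged from -1.13 to 0.13 in P3 against P1, -0.50 to 0.57 in P4 against P1, -0.95 to 0.12 in P4 against P2 and -0.12 to 1.27 in P4 against P3. GATA4 in P3 against P1 ranged from -1.06 to 1.16, with 0.00 among the values. CER1 ranged from -0.35 to 1.77 in P3 against P2 and -0.92 to 1.23 in P4 against P3. HAND1 in P3 against P1 without the second P1 sample had 0 counts in both lines and gave no value.

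The labels do not say whether the replicate numbers pair the samples, and the values here do not settle it. Correlations of replicate differences between lines were -0.153 to 0.195, and the replicate block changed no marker call (0, 0, 2, 0, 3, 0 and 1 calls). It moved the genes called in late against early from 429 to 343. Of the calls, EOMES and FOXA2 in P3 against P1 depend on each P1 sample, and 8 of 10 markers never reached 2 TPM, so absent calls below about 10 counts per sample say little.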

Other observations

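Of the 11 primitive streak and early mesoderm genes, 8 had their highest line mean (CPM) in P2, 1 in P1 (FGF17) and 2 in P4, and of the 20 signalling genes 5 had it in P2. The 3 genes given next were chosen after their values were seen, because they were high in P2, and do not stand for their lists. EVX1, a homeobox factor of the posterior streak, was at 0.22 and 0.45 TPM in P2 and at most 0.06 TPM in the other 6 samples. EVX1 passed the filter on low counts only through P2, so the medians of its list that involve P2 rest partly on the filter. MSGN1, a factor of presomitic mesoderm, was at 0.08 and 0.18 TPM in P2 and 0.00 TPM in the other 6 samples. These P2 values rest on 1 and 2 counts, and MSGN1 had too few reads to be tested. A count of 0 allows 3 counts, so MSGN1 does not set P2 apart. LEF1, a nuclear effector and target of WNT signalling, was at 2.86 and 2.29 TPM in P2 and between 0.33 and 0.64 TPM elsewhere. The log2 fold change of P2 over P1 was 2.02 for LEF1 (SE 0.55, edgeR FDR 0.359), and neither this nor the value for EVX1 (FDR 0.253) was called.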
